A study of Mus musculus with 5 samples.

Results

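Imprinted genes were followed in the forelimb buds of mouse embryos that lack Sost and its paralog Sostdc1, both secreted antagonists of Wnt signalling. The set holds 39 genes named by symbol, grouped by imprinted domain. A probe set with a single gene symbol measured 37 of them, out of 18193 genes measured in this way, through 98 of 45037 probe sets. H19, a noncoding gene, was measured only by a probe set that also carries the symbol Mir675, so counts below leave it out. Dio3 had no probe set in the annotation used here. Where a gene had several probe sets, the brightest, chosen by its mean over all 5 arrays, stands for the gene, and the others serve as a check. The list was drawn up by symbol with earlier results of this same contrast in view. Counts of members that rose or fell are therefore descriptions, and nothing is read from their size.

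The 2 double mutant samples carried the genotype Sost-/-; Sostdc1-/- and the 3 reference samples were wild type. All were fore-limb RNA of C57Bl/6 embryos at E11.5 that the labels describe as not pooled. Neither the nature of the null alleles nor the litters were given in the sources used here, and nothing further shared by the groups is named. RNA was labelled with biotin by a kit with a second round of amplification and measured on 1-colour Affymetrix arrays. Levels below are log2 of the deposited intensities, and differences are double mutant minus wild type on that scale with the standard error (SE) of the linear model. A probe set was called higher or lower at an adjusted p under 0.05 (limma, Benjamini-Hochberg over all 45037 probe sets). Levels of different probe sets are not comparable with each other. Fewer cells of a type and less RNA per cell cannot be told apart in these bulk samples.

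Imprinted genes are expressed mainly or only from the copy inherited from the mother or the one inherited from the father. Their domains are controlled by imprinting control regions, stretches of CpG-rich DNA that carry methylation from only the egg or only the sperm and keep it through early development. Many domains pair protein-coding genes with a long noncoding RNA from the other parental copy. Kcnq1ot1 and Airn silence neighbouring genes in cis, Meg3, Rian and Mirg host microRNAs and small nucleolar RNAs, and Snhg14 is the long transcript that runs antisense to Ube3a in neurons. Among the coding genes, the paternally expressed ones such as Igf2 are often growth-promoting and the maternally expressed ones such as Cdkn1c, Phlda2 and Grb10 often growth-restraining. The arrays do not tell the parental copies apart, so no value below is a measure of imprinting itself.

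The starts of the genes on which the values turn are shown first. Each sequence below is the 250 bases before an annotated start, from RefSeq on GRCm38.p6, read 5′ to 3′ on the strand of the gene, with every CpG in capitals because CpG sites are where parental methylation lies. The first 4 belong to noncoding genes of 4 different domains, the last pair to the coding genes with the largest called falls on a brightest probe set. The lines are Meg3 at chr12:109540746-109540995 (plus strand), Kcnq1ot1 at chr7:143296548-143296797 (minus strand), Airn at chr17:12741061-12741310 (plus strand), Snhg14 at chr7:60450178-60450427 (minus strand), Dlk1 at chr12:109452573-109452822 (plus strand) and Nnat at chr2:157559828-157560077 (plus strand).
Meg3: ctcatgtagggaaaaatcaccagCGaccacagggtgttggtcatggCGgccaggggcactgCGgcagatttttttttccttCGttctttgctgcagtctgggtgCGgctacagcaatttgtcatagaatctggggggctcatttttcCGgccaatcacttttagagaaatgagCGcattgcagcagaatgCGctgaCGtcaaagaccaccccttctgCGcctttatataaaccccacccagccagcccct
Kcnq1ot1: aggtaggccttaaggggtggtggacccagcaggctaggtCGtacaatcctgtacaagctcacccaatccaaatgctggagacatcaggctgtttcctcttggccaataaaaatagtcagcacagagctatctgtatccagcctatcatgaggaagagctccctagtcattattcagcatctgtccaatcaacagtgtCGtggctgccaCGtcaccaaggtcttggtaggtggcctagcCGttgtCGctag
Airn: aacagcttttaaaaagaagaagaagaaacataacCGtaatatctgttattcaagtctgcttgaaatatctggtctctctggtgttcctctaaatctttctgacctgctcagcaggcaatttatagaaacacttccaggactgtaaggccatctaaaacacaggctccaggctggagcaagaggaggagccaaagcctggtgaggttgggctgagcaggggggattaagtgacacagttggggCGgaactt
Snhg14: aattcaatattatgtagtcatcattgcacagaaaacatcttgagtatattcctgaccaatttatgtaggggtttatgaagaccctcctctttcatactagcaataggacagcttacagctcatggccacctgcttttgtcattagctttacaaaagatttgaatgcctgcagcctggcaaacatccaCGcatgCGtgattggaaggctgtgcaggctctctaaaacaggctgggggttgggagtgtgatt
Dlk1: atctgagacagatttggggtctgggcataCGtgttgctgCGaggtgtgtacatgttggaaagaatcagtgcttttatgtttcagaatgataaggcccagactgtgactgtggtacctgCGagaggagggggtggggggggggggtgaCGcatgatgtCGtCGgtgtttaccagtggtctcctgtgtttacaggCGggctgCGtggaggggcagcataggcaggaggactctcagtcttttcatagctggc
Nnat: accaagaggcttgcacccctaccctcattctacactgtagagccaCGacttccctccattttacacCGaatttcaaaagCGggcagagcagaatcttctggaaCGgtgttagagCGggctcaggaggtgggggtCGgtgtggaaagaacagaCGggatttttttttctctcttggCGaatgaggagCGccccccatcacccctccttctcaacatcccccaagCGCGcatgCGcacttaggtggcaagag
The Meg3 window held 10 CpG sites, Nnat 12, Dlk1 8, Kcnq1ot1 5, and Airn and Snhg14 2 each. The Snhg14 window is also that of the most upstream annotated start of Snrpn. Windows were found for 32 of the 39 genes, 46 in all, with a median of 11 CpG sites, against a median of 6 over all 32851 windows of the same length. The letters TGCCGC, the motif that ZFP57 binds when it is methylated, were searched on both strands. They occurred in 7 of the 46 windows (15.2%), belonging to 6 genes, and in 8.68% of all windows. Meg3 was among the 6. These matches describe the windows only, and no methylation was measured.

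Several of the noncoding genes are hosts of microRNAs, and these mature sequences are what the host transcripts are best known for. By RefSeq positions on GRCm38.p6, Mirg encloses 19 mature microRNAs, Rian 6, Meg3 3 and Mest 2. The lines below give examples with the seed, bases 2 to 8, in capitals. The first pair comes from Mirg and shares a seed, the third lies in Rian, the fourth in Meg3 and the fifth in Mest.
mmu-miR-453: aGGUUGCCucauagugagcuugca
mmu-miR-496a-5p: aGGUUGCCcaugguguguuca
mmu-miR-370-3p: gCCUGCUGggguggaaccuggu
mmu-miR-770-5p: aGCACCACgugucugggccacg
mmu-miR-335-5p: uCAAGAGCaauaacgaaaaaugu
The arrays measure the host transcripts and not the mature microRNAs, so the values below say nothing of the level of these short RNAs.

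The samples as a whole bear on every value. Within a genotype the arrays correlated at 0.991 to 0.995 over all probe sets, and between genotypes at 0.954 to 0.969. Sost read 4.16 and 4.43 in the double mutant arrays and 6.19 to 6.75 in wild type, and of both Sostdc1 probe sets 1460250_at was lower by −2.35 while 1449340_at differed by 0.05 (adjusted p = 0.775). Both double mutant arrays were high in Xist and in Y-linked transcripts, whereas each wild type array was high in only 1 of these, which goes against unpooled embryos of a single sex in the double mutants. No comparison is possible without both of those arrays. Results with the Y-linked level as a covariate are given beside the counts. That level was 3.07 in wild type replicate 1 and 7.73 to 7.99 in the other arrays. The covariate thus in effect marks wild type replicate 1 and cannot address the mixed signal of the double mutants. The Gapdh 3′ minus 5′ control difference was 0.27 and 0.16 in double mutants and −0.14 to −0.06 in wild type. That of Actb overlapped, at 0.65 and 0.56 against 0.20, 0.24 and 0.68, with wild type replicate 3 highest. The poly-A spike-in Dap read 6.90 and 7.28 against 3.23 to 3.36. Group means of the spike-ins Thr, Phe and Lys were 5.23, 5.35 and 4.86 against 3.50, 3.54 and 3.31. The absent-transcript control Trpn averaged 3.10 against 3.07. Wild type spike-ins thus read near that control, and such a difference between the arrays cannot be told apart from genotype. Among markers, 4 of 6 surface ectoderm genes were called higher (summed intensity 4733 and 5017 against 3146 to 3651) and 3 of 5 endothelial genes lower (845 and 927 against 1246 to 1423). Also called lower were 2 of 5 erythroid genes (44209 and 49423 against 50097 to 53558) and 1 of 5 muscle precursor genes (782 and 829 against 1050 to 1205). The 5 macrophage genes, none called, summed to 604 and 744 against 854 to 922. None of 4 liver genes (167 to 427 against 123 to 148) and 4 cartilage genes (5261 to 7032 against 6840 to 9262) was called. Some uncalled genes went the other way from the called ones of their list, such as Krt5 (−0.38), Pax3 (0.79) and Hba-a1 (0.17). Over the brightest probe sets of all genes, 6.56% were called higher and 8.14% lower. The limb mesenchyme markers were present at a summed 17393 and 17670 against 16755 to 17961, with Hoxa13 alone of 8 called lower, and both measured placental markers were near the bottom of the scale with a summed intensity of 25.7 to 26.96.

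Called noncoding members were higher and called coding members lower on the brightest probe sets. On the brightest probe sets, 4 of the 37 genes were called higher, Kcnq1ot1, Rian, Mirg and Snhg14, and all 4 are long noncoding RNAs. Another 8 were called lower, Dlk1, Nnat, Usp29, Mest, Peg10, Phlda2, Sgce and Cdkn1c, and all 8 are protein-coding. The other 25 were not called. Over the brightest probe sets of all 18193 genes, 6.56% were called higher and 8.14% lower, and over all 45037 probe sets 8.7% and 9.52%. The median difference of the 37 genes was −0.03, against −0.02 for all genes, and it was 1.505 over the 6 noncoding and −0.09 over the 31 coding members. Values of the 2 groups did not overlap in 21 of the 37 genes, against 43.2% of all genes.

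These calls depended on single arrays. Without double mutant replicate 1, and again without wild type replicate 2, limma called 0 of 45037 probe sets (14059 and 11115 had an unadjusted p under 0.05), and the adjusted p of the 12 called members ran from 0.0511 to 0.175 and from 0.0584 to 0.159. Without double mutant replicate 2, 7 of the 12 were still called, and without wild type replicate 1 or replicate 3, 5 were. The differences of all 12 kept their direction whichever array was left out. With the Y-linked level as a covariate 1 member was called higher and 4 lower. With the Gapdh difference as a covariate, which itself does not overlap between the genotypes, 0 of 45037 probe sets were called (4259 at an unadjusted p under 0.05), and 11 of the 12 members kept their direction, Usp29 being the exception. Sizes moved by more than 1.5 times in several of the 11: Kcnq1ot1 to 0.30, Mirg to 0.26, Nnat to −0.93, Cdkn1c to −0.16 and Peg10 to −0.04 became smaller, and Snhg14 became larger at 2.58.

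**Figure D1:**
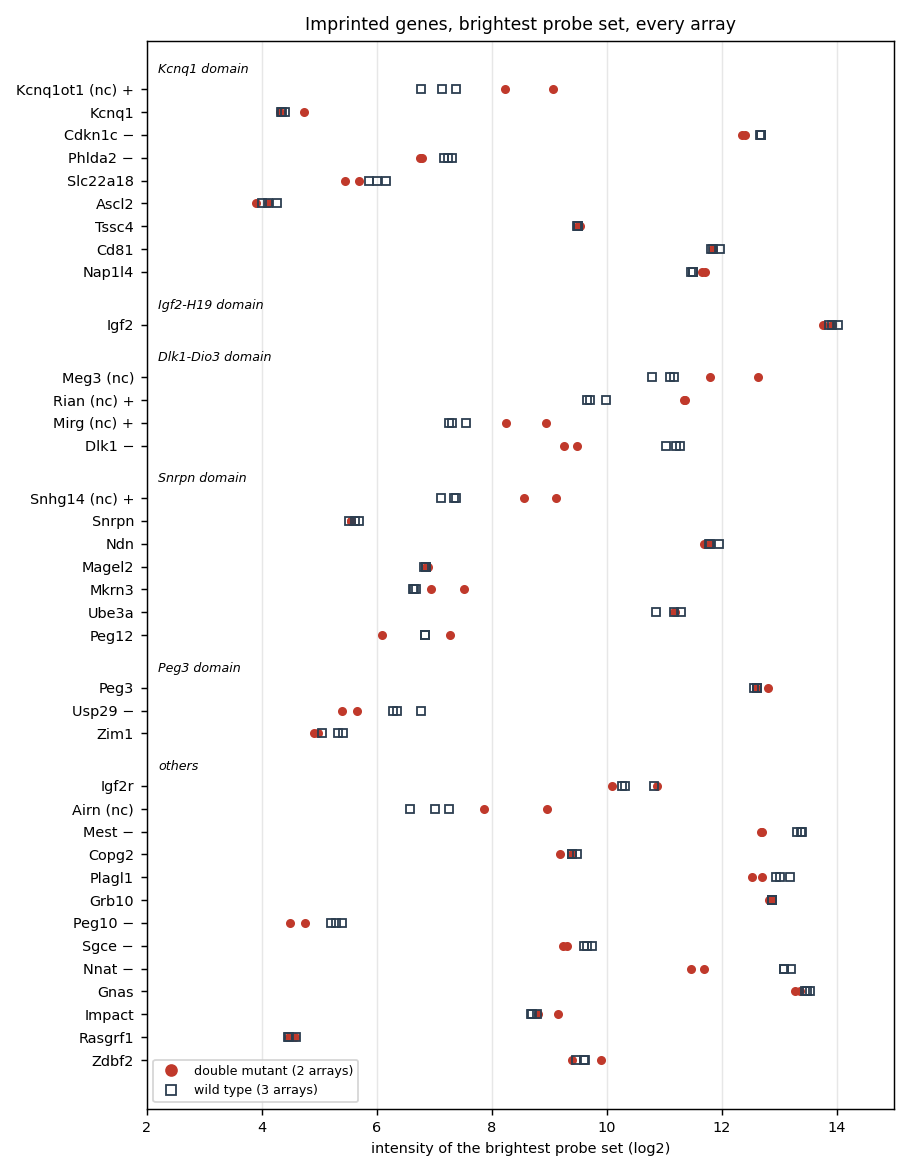
Log2 intensity (x axis) of the brightest probe set of the 37 measured imprinted genes in each of the 5 arrays, one gene per row, with noncoding genes marked nc and called genes marked + for higher and − for lower. The 6 noncoding genes had every double mutant point above every wild type point, while most coding genes had points of both genotypes close together.

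The noncoding genes were measured by several probe sets each. Of 31 probe sets to the 6 noncoding genes, 16 were called higher and 0 lower, with a median difference of 1.46. In 26 of them the groups did not overlap, in either direction, against 45.2% of all 45037 probe sets. Over the 1355 long noncoding genes on the arrays, 6.05% were called higher and 1.62% lower on their brightest probe set. Most of those genes read low, and among the 218 whose level passed the median probe set's, 26.6% were called higher and 4.13% lower. All 6 imprinted noncoding genes counted here were above that level. H19, also noncoding, is not among the 6 because its probe set also carries Mir675. It differed by −0.02 and was not called (adjusted p = 0.787). The median over the brightest probe sets of the 6 was 9.01 and 8.68 in double mutants and 7.47, 7.18 and 7.34 in wild type. It thus differed between the genotypes, as did the Gapdh difference, the spike-in level and several marker sums given above. From double mutant replicate 1 to replicate 2 it fell with the Gapdh difference while Dap rose. Wild type replicate 1 had the highest wild type median and the lowest Gapdh difference. No spike-in or marker was used as a covariate, so their part in the differences was not tested. The Gapdh difference was fitted, but it does not overlap between the genotypes, so that fit cannot tell it apart from genotype.

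In the Dlk1-Dio3 domain, where Meg3, Rian and Mirg come from the maternal copy and Dlk1 from the paternal one, called noncoding and coding members differed in sign. Rian, the host of small nucleolar RNAs, read 11.34 and 11.36 in the double mutant arrays and 9.71, 9.98 and 9.66 in wild type. Both double mutant values lay well above the wild type range, with a difference of 1.57 ± 0.12 (SE, adjusted p = 0.0073). The Rian probe set 1440001_at was also called higher by 2.54 (adjusted p = 0.0186). The other Rian probe sets were not called, 1427580_a_at at 0.35 and 1428055_at at 2.38 with a spread of 4.12 to 6.55 in wild type. Mirg, the microRNA host at the far end of the cluster, read 8.93 and 8.25 against 7.55, 7.25 and 7.31. The groups did not overlap, the double mutant arrays differed between themselves by more than the whole wild type range, and the difference was 1.22 ± 0.24 (SE, adjusted p = 0.0385). The second Mirg probe set, 1440097_at, was higher by 1.48 (adjusted p = 0.0187).

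Meg3, the noncoding RNA that opens the maternal transcript chain, was measured by 11 probe sets, the most of any member. Its brightest, 1439380_x_at, read 12.62 and 11.79 in double mutants and 11.16, 10.78 and 11.11 in wild type. The groups did not overlap, yet the difference of 1.19 ± 0.29 (SE) missed the threshold (adjusted p = 0.0625), and it was 0.78 (adjusted p = 0.137) without double mutant replicate 1. Of the other 10, 6 were called higher, from 0.68 on 1428765_at to 2.61 on 1452905_at. The probe set 1452905_at read 12.21 and 11.19 against 9.28, 8.93 and 9.07 (2.61 ± 0.34 SE, adjusted p = 0.0161). In 10 of the 11 the groups did not overlap, against 45.2% of all probe sets, and all 11 differences were above 0. The 11 are readings of 1 gene in the same arrays and not independent of each other. Double mutant replicate 1 was above replicate 2 on every one of them. Probe sets of this 1 gene therefore gave sizes from 0.23 on 1429256_at to 2.61, and no single size stands for Meg3.

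Dlk1, a membrane protein of the Notch ligand family that restrains differentiation of progenitor cells, read 9.26 and 9.48 in the double mutant arrays and 11.21, 11.02 and 11.27 in wild type. Both double mutant values were below all wild type values by more than 1 log2 unit, and the difference of −1.80 ± 0.11 (SE, adjusted p = 0.0064) was the largest fall among the brightest probe sets of the 37 genes. The other Dlk1 probe set, 1442724_at, fell by 0.74 (adjusted p = 0.0080). Of the 19 probe sets of the domain, 10 were called higher, all noncoding, and 2 lower, both to Dlk1. Over all 45037 probe sets these shares were 8.7% and 9.52%. As 11 of the 19 measure Meg3, they are repeated readings of few genes.

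**Figure D2:**
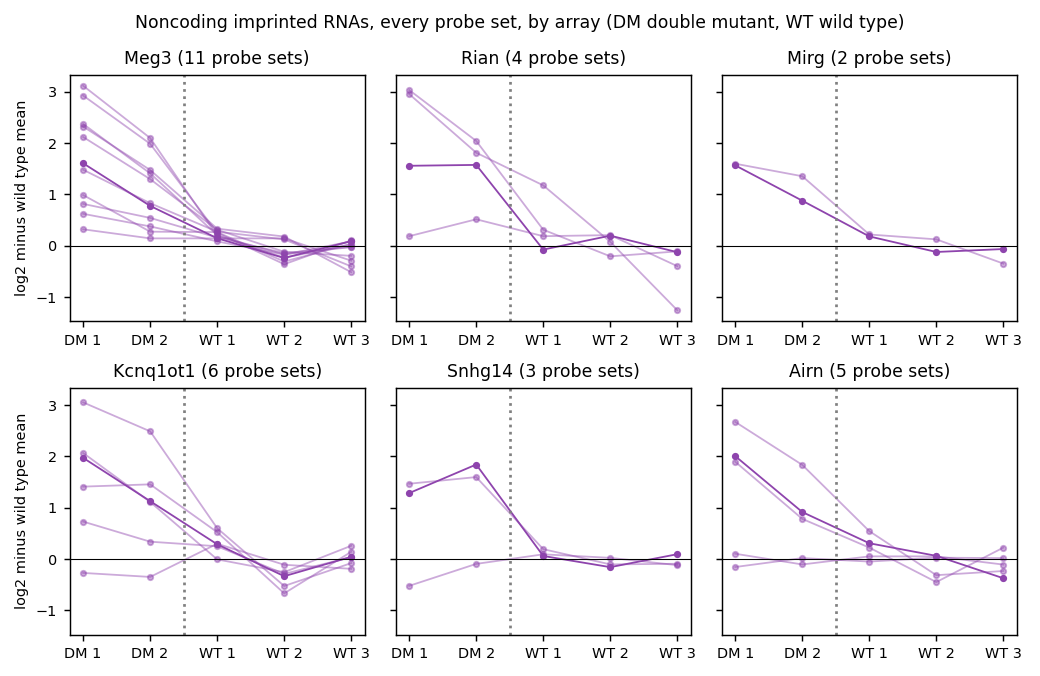
Every probe set of the 6 noncoding genes in each array, as log2 intensity minus the wild type mean of that probe set (y axis), one panel per gene, with the brightest probe set as the darker line. Lines only join the values of 1 probe set, since replicates have no order, and most lines stand above 0 in the double mutant arrays with a few near 0 or below it.

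In the Kcnq1 domain the paternally expressed noncoding RNA was higher and 2 of its maternally expressed coding neighbours were lower. Kcnq1ot1, which spreads silencing over the domain, read 9.06 and 8.22 in double mutants and 7.38, 6.76 and 7.14 in wild type. The groups did not overlap and the difference was 1.55 ± 0.33 (SE, adjusted p = 0.0458), close to the threshold. Probe sets 1458161_at and 1442029_at to Kcnq1ot1 were also called, at 1.59 (adjusted p = 0.0463) and 2.77 (adjusted p = 0.0194). Its other 3 probe sets all read below 6 and were not called, at 1.43, 0.53 and −0.31. The called 1442029_at was dim as well, at 6.48 and 5.92 against 4.03, 2.91 and 3.35 in wild type.

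Cdkn1c, an inhibitor of cyclin-dependent kinases, read 12.34 and 12.41 in the double mutant arrays against 12.68, 12.68 and 12.67. The wild type arrays agreed to 0.01, and the fall was small at −0.30 ± 0.05 (SE, adjusted p = 0.0225). Phlda2, a PH domain protein that limits placental growth, read 6.75 and 6.79 against 7.16, 7.23 and 7.31. It did not overlap between groups either (−0.46 ± 0.06 SE, adjusted p = 0.0176). The other 6 coding genes of the domain were not called. Slc22a18, a transporter, had double mutant and wild type means of 5.57 and 6.01 with no overlap (−0.45, adjusted p = 0.0876). Nap1l4, a nucleosome assembly protein, had means of 11.68 and 11.49, also without overlap (0.19, adjusted p = 0.0599). The tetraspanin Cd81 and Tssc4 differed by −0.03 and 0.02. The potassium channel gene Kcnq1 and the trophoblast factor Ascl2 read below the median of all probe sets, 5.41, in every array, at differences of 0.16 and −0.13.

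The Igf2-H19 domain stayed within the spread of the arrays. Igf2, the paternally expressed growth factor, read 13.92 and 13.76 against 13.86, 13.91 and 14.03 (−0.09 ± 0.08 SE, adjusted p = 0.494). The genotypes overlapped. The probe set annotated to both H19 and Mir675 read 13.98 and 13.98 against 13.98, 13.98 and 14.04. Both lay near the highest value on any array, 14.46 to 14.49, and whether they were near saturation was not tested. The second Igf2 probe set, 1415931_at, ran from 6.51 to 9.30 within wild type alone, wider than its double mutant values of 7.83 and 7.91.

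Within the Snrpn domain, the noncoding transcript again was the called member. Snhg14, which carries clusters of small nucleolar RNAs, read 8.56 and 9.12 in double mutants and 7.34, 7.12 and 7.37 in wild type. The double mutant values were more than 1 log2 unit above the wild type ones (1.56 ± 0.20 SE, adjusted p = 0.0153), and probe set 1436964_at gave the same size (1.53, adjusted p = 0.0075). Its remaining probe set, 1445296_at, read near 3 in all arrays and was not called. None of the 6 coding genes was called on its brightest probe set. Ndn, a MAGE family protein of differentiated cells, read 11.69 and 11.79 against 11.79, 11.77 and 11.94 (−0.09, adjusted p = 0.457). Of its 8 probe sets 1 was called, 1437853_x_at at −0.55 (adjusted p = 0.0120). Magel2, of the same family, differed by 0.03 and the only 1-symbol probe set of Snrpn by −0.05. Peg12 read 6.08 and 7.28 in double mutants, on either side of 6.84 in every wild type array, and its difference of −0.16 became 0.44 without double mutant replicate 1 and −0.76 (adjusted p = 0.0359) without replicate 2. Mkrn3, a ubiquitin ligase, read 6.94 and 7.52 against 6.64 to 6.68 and did not overlap, at 0.57 (adjusted p = 0.118), 0.28 without double mutant replicate 2 and 0.86 without replicate 1.

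Probe sets annotated to both Snurf and Snrpn, which share a bicistronic transcript, were not counted as members. The one called, 1421063_s_at, read 7.40 and 8.59 against 9.83, 9.75 and 9.56 (−1.72 ± 0.38 SE, adjusted p = 0.0498). Probe sets 1415895_at and 1415896_x_at differed by −0.54 and −0.57, with adjusted p-values of 0.0701 and 0.0700. A further bright one, 1435716_x_at, overlapped between genotypes (−0.19, adjusted p = 0.562), and the dim 1441905_x_at and 1460075_x_at, which read below 4, were both at −0.17 and not called. The called Snhg14 probe sets thus differed in sign from those of Snurf and Snrpn in the same arrays, while the uncalled Snhg14 probe set, at −0.31, did not.

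The Peg3 domain had 1 called member. Usp29, a ubiquitin-specific protease gene that starts next to Peg3 on the other strand, read 5.40 and 5.65 against 6.76, 6.35 and 6.28 (−0.94 ± 0.18 SE, adjusted p = 0.0390). It did not overlap between the genotypes. With the Gapdh difference as a covariate its sign turned, to 0.21 (adjusted p = 0.914). The other Usp29 probe set, 1419237_at, overlapped between the genotypes and was not called (−0.06, adjusted p = 0.462). Peg3, a zinc finger protein expressed from the paternal copy, read 12.80 and 12.59 against 12.55, 12.61 and 12.61 on its brightest probe set. These values overlapped (0.10 ± 0.08 SE, adjusted p = 0.436). The zinc finger gene Zim1 read low, with means of 4.95 and 5.26, and was not called (−0.31, adjusted p = 0.182).

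Among the genes outside these domains, Nnat, a small membrane proteolipid, had the second largest fall on a brightest probe set. It read 11.47 and 11.70 in double mutants and 13.21, 13.08 and 13.07 in wild type. The double mutant values were more than 1 log2 unit below every wild type value (−1.54 ± 0.09 SE, adjusted p = 0.0063). Mest, a paternally expressed gene of the hydrolase fold and the host of the miR-335 pair, read 12.67 and 12.70 against 13.31, 13.38 and 13.40. Each genotype was tight and the fall was −0.68 ± 0.05 (SE, adjusted p = 0.0073). Copg2, the coat protein gene beside Mest, differed by −0.14 and was not called.

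Peg10 and Sgce are neighbours expressed from the paternal copy. Peg10, derived from a retrotransposon and needed in the placenta, read 4.49 and 4.75 against 5.29, 5.39 and 5.19 on its single probe set. All 5 values were below the median level of the arrays, and the difference was −0.67 ± 0.11 (SE, adjusted p = 0.0264). Sgce, a sarcoglycan, read 9.31 and 9.24 against 9.65, 9.74 and 9.59 (−0.39 ± 0.07 SE, adjusted p = 0.0274). Its other probe set, 1443518_at, went the opposite way, at 6.22 and 5.68 against 4.79, 4.33 and 3.93 (1.60 ± 0.32 SE, adjusted p = 0.0390).

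Airn and Igf2r overlap on opposite strands, Airn from the paternal copy and Igf2r, the receptor that clears IGF2, from the maternal one. Airn read 8.95 and 7.86 in double mutants and 7.26, 7.01 and 6.57 in wild type. It did not overlap between groups but was not called (1.46 ± 0.40 SE, adjusted p = 0.0820), and the difference was 0.92 without double mutant replicate 1. Of its 4 other probe sets, 1446095_at was called at 2.25 (adjusted p = 0.0301). Airn probe set 1456139_at was not called at 1.34, nor were 1436627_at at −0.07 and 1457337_at at 0.00, both with overlap. Igf2r read 10.87 and 10.09 against 10.83, 10.26 and 10.31, with wide overlap (0.02, adjusted p = 0.984), and its second probe set was not called either. Zdbf2, a zinc finger gene, differed by 0.09 and Rasgrf1, a guanine nucleotide exchange factor that read below 5 in all arrays, by 0.01.

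**Figure D3:**
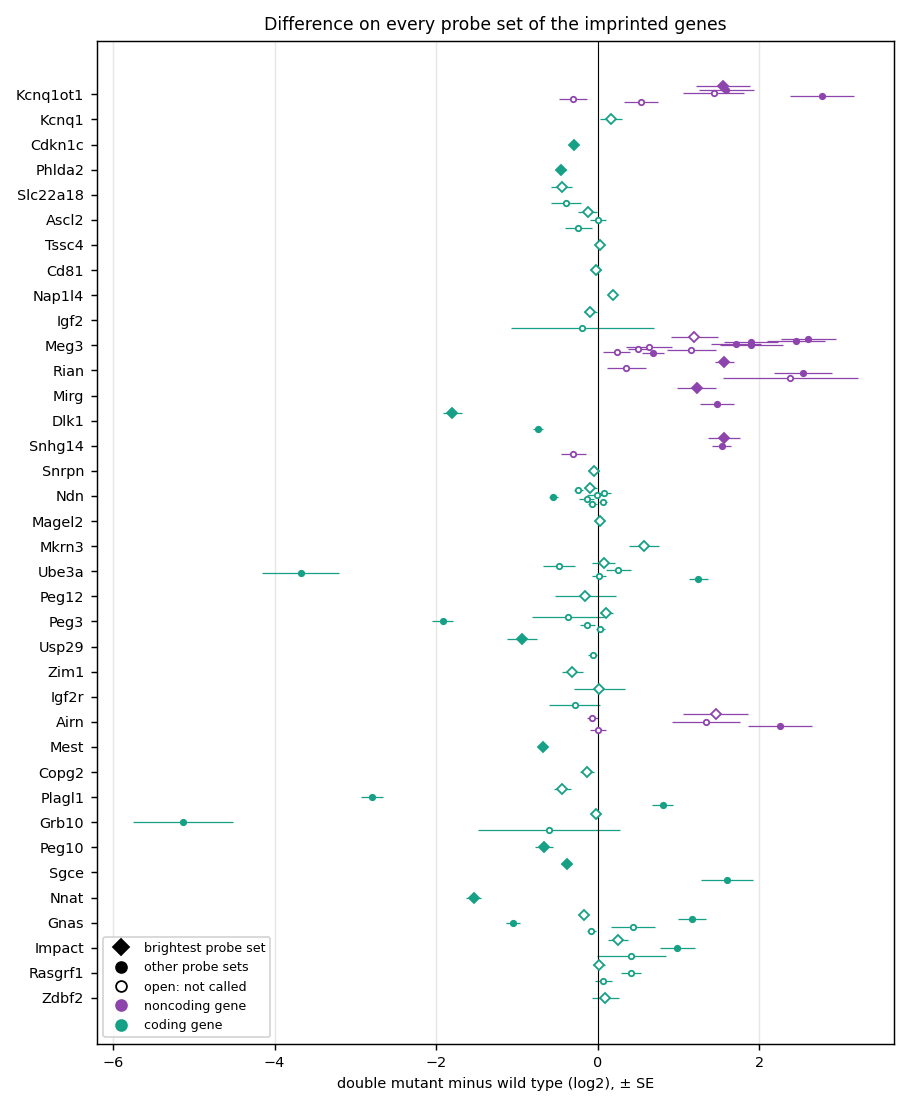
Double mutant minus wild type difference (x axis, log2) of all 98 probe sets with a single member symbol, grouped by gene and domain, with bars of 1 SE, diamonds for the brightest probe set and open symbols for those not called. Noncoding probe sets lie mostly to the right of 0 and coding ones on both sides, with the brightest coding probe sets that were called all on the left.

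Several coding genes gave different answers on different probe sets. Over the 36 coding probe sets that were not the brightest of their gene, 5 were called higher and 7 lower, against 8.58% and 15.4% of all such probe sets of protein-coding genes, while over the 31 brightest 0 were higher and 8 lower. Of 22 coding member probe sets annotated with a RefSeq accession, 0 were called higher and 5 lower. Among 32 with another accession 5 were higher and 7 lower, and among 13 without one 0 and 3. Shares of these kinds over all probe sets were not counted. Called probe sets of opposite sign occurred in 4 genes, Sgce, Plagl1, Ube3a and Gnas. Plagl1, a zinc finger factor of an imprinted growth network, read 12.69 and 12.52 against 13.02, 12.94 and 13.18 on its brightest probe set (−0.44, adjusted p = 0.0541). The Plagl1 probe set 1450533_a_at read 4.78 and 5.04 against 7.69, 7.87 and 7.55, a fall of −2.79 ± 0.13 (SE, adjusted p = 0.0053). The remaining one, 1438588_at, read 6.37 and 6.02 against 5.51, 5.31 and 5.37 (0.80 ± 0.13 SE, adjusted p = 0.0262). None of the 3 overlapped between genotypes, and they gave 2 called directions for the same gene.

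Ube3a, a ubiquitin ligase imprinted in neurons, read 11.19 and 11.16 against 11.16, 11.29 and 10.86 on its brightest probe set, with overlap (0.07, adjusted p = 0.764). Probe set 1425206_a_at read 3.99 and 3.97 against 8.08, 8.12 and 6.78, a difference of −3.68 ± 0.48 (SE, adjusted p = 0.0159). Probe set 1445727_at read 5.11 and 5.09 against 3.71, 4.05 and 3.80 (1.25 ± 0.12 SE, adjusted p = 0.0096). The first overlapped between genotypes, the second fell and the last rose. The rest of the 6 Ube3a probe sets were not called. Of these, 1416681_at differed by −0.48 without overlap, 1416682_at by 0.25 and 1431224_at by 0.02. Gnas, whose locus makes several proteins from alternative first exons, read 13.27 and 13.35 against 13.44, 13.48 and 13.54 on its brightest probe set (−0.18, adjusted p = 0.125). Of its dimmer probe sets, 1427789_s_at read 4.04 and 4.15 against 5.16, 5.25 and 5.03 (−1.05, adjusted p = 0.0081) and 1453413_at read 6.09 and 5.56 against 4.73, 4.64 and 4.60 (1.17, adjusted p = 0.0218).

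The widest gap between probe sets of 1 gene belonged to Grb10, an adaptor that dampens insulin and IGF receptor signalling. Its brightest probe set read 12.88 and 12.81 against 12.87, 12.87 and 12.87 (−0.03 ± 0.05 SE, adjusted p = 0.735). Probe set 1425457_a_at read 5.92 and 6.11 against 11.80, 11.63 and 10.02, a difference of −5.13 ± 0.62 (SE, adjusted p = 0.0141). The remaining one, 1430164_a_at, overlapped, at 8.62 and 8.13 against 9.98, 9.58 and 7.40. Wild type replicate 3 was the lowest wild type array on both of these, and also on 1425206_a_at of Ube3a and 1415931_at of Igf2. For Peg3, 1417356_at read 10.04 and 10.19 against 12.13, 12.14 and 11.83 (−1.92 ± 0.13 SE, adjusted p = 0.0067) beside a brightest probe set that overlapped. Impact, a regulator of the GCN2 kinase pathway, had means of 8.97 and 8.72 on its brightest probe set (0.25, adjusted p = 0.252) and a called 0.99 on 1446750_at (adjusted p = 0.0473). Probe positions along the transcripts were not used here, so whether such probe sets read different isoforms or different distances from the tail was not tested.

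**Figure D4:**
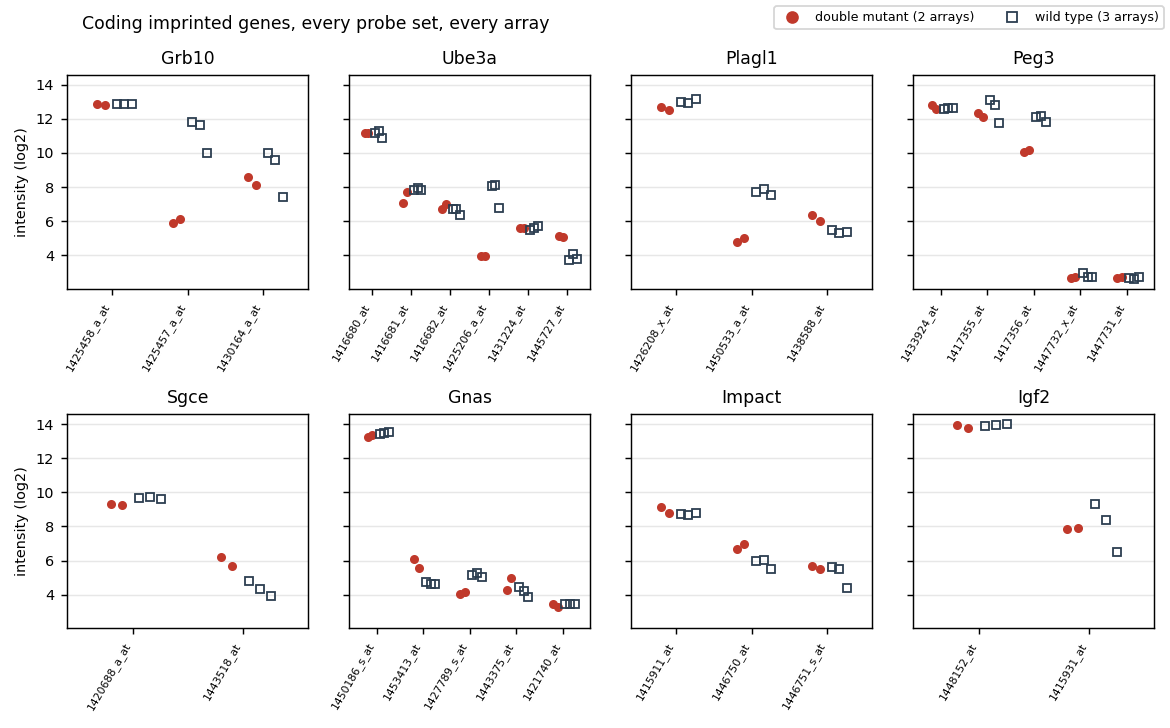
Log2 intensity (y axis) of every probe set of 8 coding imprinted genes in each array, one panel per gene, with filled circles for double mutant and open squares for wild type arrays. In Grb10, Ube3a, Plagl1 and Peg3 one probe set drops steeply in the double mutant arrays while the brightest moves far less.

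Calls in both directions occurred for either parental copy. Of 16 maternally expressed genes 2 were called higher and 2 lower, and of 20 paternally expressed genes 2 higher and 6 lower, against 6.56% and 8.14% of all genes. With the noncoding genes set aside, 0 of 13 maternal and 0 of 17 paternal coding genes were higher, and 2 and 6 were lower. Gnas, expressed from both copies in different forms, was counted in neither. The parental assignments are general knowledge of the mouse and were not tested in these limbs.

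A further 41 imprinted genes outside the list, of which 35 were measured, gave 1 called higher and 5 lower, with a median of −0.06. Those with the smallest p-values were Dhcr7, the last enzyme of cholesterol synthesis (−0.48, adjusted p = 0.0148), Axl, a receptor tyrosine kinase (−0.95, adjusted p = 0.0190), and Pon3, a paraoxonase (−0.53, adjusted p = 0.0235). The factors that set, keep or read imprints were mostly not called, with 3 of 29 measured genes higher and 1 lower and a median of 0.09. Suz12, a subunit of Polycomb repressive complex, was higher by 0.90 (adjusted p = 0.0128), Ehmt2, a histone H3 lysine methyltransferase, fell by 0.79 (adjusted p = 0.0158), and Hells, a chromatin remodeller, was higher by 0.71 (adjusted p = 0.0494). Over all genes these shares were 6.56% higher and 8.14% lower.

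**Figure D5:**
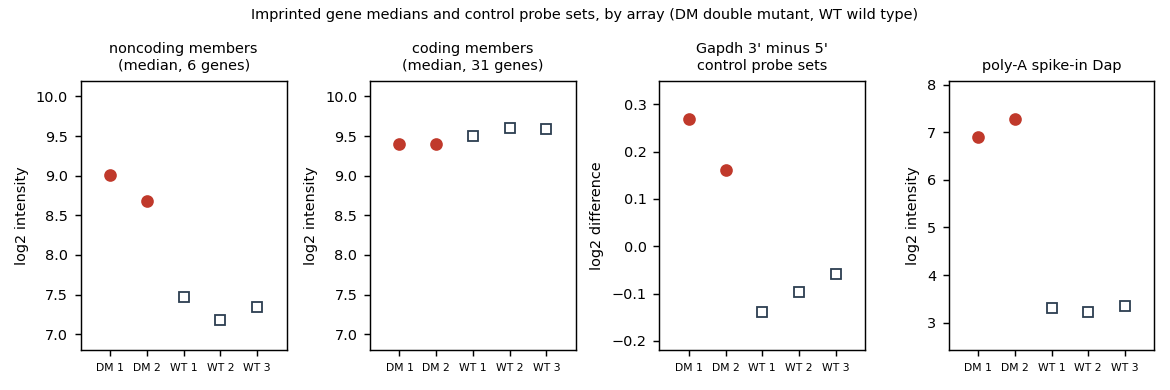
Median log2 intensity of the 6 noncoding and of the 31 coding imprinted genes on their brightest probe sets, the Gapdh 3′ minus 5′ difference and the spike-in Dap (y axes, log2) in each array. The noncoding median was 9.01 and 8.68 in double mutants against 7.18 to 7.47, the coding median 9.40 and 9.40 against 9.50 to 9.60, and both control measures were also higher in the double mutant arrays.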

How the data were processed

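Data of 5 arrays were used as deposited: linear intensities, 1 per probe set and array, made by the authors. RMA and limma are named, per the submitters' processing notes, without version or settings. Log2 of the deposited intensities was tested with no further scaling. The fit took 45037 of 45101 probe sets, all but the 64 controls of the manufacturer, whatever their level. Of these, 34945 carry 1 symbol, 932 several and 9160 none, and only the first kind was counted for a gene. The test of genotype was limma's (version 3.58.1, R 4.3.3; 1 mean per genotype, lmFit and eBayes, 3 residual and 1.29 prior degrees of freedom), with two-sided p-values adjusted by Benjamini-Hochberg over all probe sets. Simulated data of the same design for double mutant against wild type (45037 probe sets) had 50 probe sets changed at each size. There the fit recovered 12% of changes of 1.5-fold, 52% of 2-fold, 90% of 4-fold and 96% of 8-fold, with 5 false calls. In the real data 8206 probe sets were called. With far fewer changes the adjusted threshold is stricter, so these rates do not carry over to the real data. With 5 arrays, their number limits the precision, and p-values measure the spread between these samples. In 35 of the 98 member probe sets, some deposited values repeat exactly between arrays, as for Peg12 in wild type. Repeats within a genotype narrow the spread that the test uses, and where they come from was not tested.

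Every measured member is named. Array values are given for members called on their brightest probe set, for the brightest member of each domain and for members with called probe sets of opposite sign. Values of other members and probe sets given by array were chosen after they were seen. From the other lists the 3 genes with the smallest p are named. Members, domains and lists were chosen with earlier results of these data known. Sequences came from RefSeq tables of GRCm38.p6. Alternatives were another scaling, an offset of 16 before log2, a filter on level, a variance trend, a replicate block, the Gapdh and Y-linked covariates, other probe sets per gene, and leaving out each array.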

Additional observations from a re-analysis of the deposited data

How the results depend on the processing

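The counts, 4 members called higher and 8 lower, were within 1.5 times of these under equal array medians (6 and 9), quantile normalization (6 and 7), an offset before log2 (4 and 8), a filter at the median level (6 and 8 of 32 tested), a variance trend (5 and 9) and the mean of all probe sets of a gene (6 and 9). Equal medians put the median of all probe sets at −0.10, and the signs of Tssc4, Magel2, Ube3a, Igf2r, Rasgrf1 and Zdbf2, none of them called, turned. Taking the next brightest probe set in the 21 genes with more than 1 gave 7 higher and 3 lower, a smaller and different set of probe sets by construction. The Y-linked covariate, which in effect marks wild type replicate 1, left 1 and 4. The Gapdh covariate left 0 and 0 (3 and 6 members at an unadjusted p under 0.05). Leaving out 1 array gave 0 to 3 higher and 0 to 5 lower. The lowest counts, 0 and 0, came without wild type replicate 2 (5 and 10 members at an unadjusted p under 0.05) and without double mutant replicate 1 (9 and 9). Where only 1 double mutant array is left, it is assumed to vary as wild type does. Leaving out 1 array also turned the sign of uncalled differences of Kcnq1, Cd81, Ube3a, Peg3, Igf2r, Grb10, Zdbf2, Rasgrf1 and Peg12. Under the Gapdh covariate, Usp29 reversed to 0.21 and the Kcnq1ot1 probe set 1458161_at to −0.57. Meg3 and Airn were called under equal medians (adjusted p = 0.024 and 0.030), and under the Gapdh covariate Meg3 was at −0.30 (adjusted p = 0.944). The cause was not tested in any of these.

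With the replicate number of the labels as a replicate block, 2 members were called higher and 0 lower (6 and 10 at an unadjusted p under 0.05), of 2351 calls over all probe sets. The labels do not say that numbers pair the samples, wild type replicate 3 has no partner, and deviations of same-numbered samples correlated at 0.089 and 0.120. The intensities have no depth. Changes of 1.5-fold were seldom recovered in simulated data of this size, in which far fewer probe sets were changed than were called here.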
